A study of Homo sapiens with 44 samples.

Results

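The regions described here are the peaks of open chromatin that the deposited peak table assigns to 9 genes of stromal cells, namely FAP, PDPN, THY1, CHI3L1, PDGFRA, PDGFRB, PDGFA, PDGFC and PDGFD. A row of the table was taken where the gene part of its name was 1 of these symbols, which gave 315 of 407383 rows. PDGFC had 87 rows, THY1 48, PDGFA 47, PDPN 38, PDGFRB 31, FAP 24, PDGFD 22, CHI3L1 15 and PDGFRA 3. All 315 passed the filter on low coverage. The measurements came from ATAC-seq, in which a transposase inserts sequencing adapters into accessible DNA, on Ccd18-Co, a line of fibroblasts from the human colon that was used as the only cell source. After attachment and serum starvation, cells were kept for a further day in serum-free medium, either unstimulated or with 1 of 10 cytokines. The dose was 0.1 ng/ml for IL-1β and 10 ng/ml for OSM (oncostatin M), TNF, IL-6, IL-22, IL-17A, IL-13, IFNγ, IFNα and TGF-β1. Each of the 11 groups had 4 libraries, 44 in all, and nothing says that they came from separate cultures of this 1 line, so that p-values measure the spread between these libraries, which may be technical.

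FAP is a serine protease on the surface of activated fibroblasts, PDPN (podoplanin) is a mucin-type surface glycoprotein of stromal and lymphatic cells, THY1 (CD90) is a lipid-anchored surface protein widely used to mark fibroblasts, and CHI3L1 is a secreted chitinase-like glycoprotein released in inflammation. Platelet-derived growth factors are dimeric ligands that act on mesenchymal cells through the receptor tyrosine kinases PDGFRα and PDGFRβ. The PDGFA product binds PDGFRα, the PDGFC product is secreted in a latent form that proteases activate, and the PDGFD product, also latent, acts mainly through PDGFRβ. A peak in or near a gene can be a promoter or an enhancer, but accessibility is not expression, and no RNA was examined here.

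Values are base coverage of a peak per Mb of base coverage in all peaks (per Mb), after a correction for composition, and 75 bases of coverage are about 1 read. The library totals ran from 148.8 to 823.1 Mb with a median of 416.3 Mb, so that 1 read was worth 0.0951 to 0.518 per Mb. The peak nearest the start was present for 11 of 11 fibroblast markers, at 1.83 to 25.3 per Mb in unstimulated cells. Of 9 epithelial markers 4 had such a peak, at 0.301 to 4.52 per Mb with KRT8 highest, and EPCAM, KRT20, VIL1, CDX2 and ESRP1 had none. Of 8 immune markers 3 had one, at 0.908 to 8.25 per Mb with PTPRC highest. All 7 endothelial markers had one, at 0.509 to 1.42 per Mb, and all 8 contractile markers, at 0.649 to 36.3. The epithelial, immune and contractile ranges overlapped that of the fibroblast markers. The 4 OSM libraries had 9.64 to 17.03% of all peaks at 0 against 3.53 to 10.85% in the unstimulated libraries. Their composition factors were 0.861 to 0.92, and those of TGF-β1 were 1.063 to 1.184, against 1.004 to 1.058 in the unstimulated libraries. The part of these differences in the OSM and TGF-β1 results was not tested.

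The gene part of a row's name was not always the gene the peak lies in. The 3 rows named PDGFRA are centred in FIP1L1, and 43 rows in PDGFRA or within 2 kb before it are named GSX2. Of the 48 THY1 rows 42 are centred in USP2-AS1, a non-coding gene upstream of THY1, and 6 are centred in THY1 itself. Of the 15 CHI3L1 rows 2 are centred in CHI3L1. In the opposite direction 11 rows in or just before PDGFRB are named CSF1R, 24 of PDGFD are named DDI1 or MIR4693, 4 of FAP are named LOC101929532 and 2 of PDGFA are named HRAT92. The rows taken by name are described first under each gene, and the 43 PDGFRA rows are described by position.

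A peak was called raised or lowered where limma's test gave a Benjamini-Hochberg adjusted p under 0.05 over all 407156 tested peaks of a comparison. Against unstimulated cells, 21 of the 315 peaks were called for IL-1β, 10 raised and 11 lowered, where 3.19% of all peaks were called (1.44% raised and 1.75% lowered). TNF gave 22 called peaks, 15 raised and 7 lowered, against 4.14% of all peaks (2.68 and 1.46%). OSM gave 20, 16 raised and 4 lowered, against 5.18% (4.13 and 1.05%), and TGF-β1 gave 15, 8 raised and 7 lowered, against 3.97% (1.1 and 2.87%). These counts are 6.67, 6.98, 6.35 and 4.76% of the 315 peaks. The median log2 change over the 315 peaks was -0.019 for IL-1β, 0.054 for TNF, -0.031 for OSM and 0.089 for TGF-β1, beside 0.006, -0.025, -0.104 and 0.046 over all peaks tested. IL-13 gave 3 called peaks (1.4% of all peaks) and IFNγ gave 2 (1.57%).

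No peak of these genes was called by limma for IL-6, IL-22, IL-17A or IFNα, for which 0.0646, 0.084, 0.0305 and 0.651% of all peaks were called. At an unadjusted p under 0.05 these cytokines had 20, 18, 19 and 36 of the 315 peaks, beside 58 for IL-1β, 67 for TNF, 67 for OSM and 60 for TGF-β1. In all, 53 of the 315 peaks (16.8%) were called for at least 1 cytokine, as 13.3% of all peaks were, and 100 of them (31.7%) differed among the 11 groups in limma's F-test, as 22.2% of all did. None was called for 4 or more cytokines, as 0.548% of all peaks were, and 5 were raised by one cytokine and lowered by another. All 10 comparisons used the same 4 unstimulated libraries. By gene, the peaks called for any cytokine were 17 of 87 for PDGFC, 10 of 48 for THY1, 8 of 38 for PDPN, 5 of 31 for PDGFRB, 4 of 24 for FAP, 4 of 15 for CHI3L1, 3 of 47 for PDGFA, 2 of 22 for PDGFD and 0 of 3 for PDGFRA. By class in the table, 20 of 117 distal, 27 of 159 intronic, 4 of 23 exonic and 2 of 16 promoter rows were among them.

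**Figure D1:**
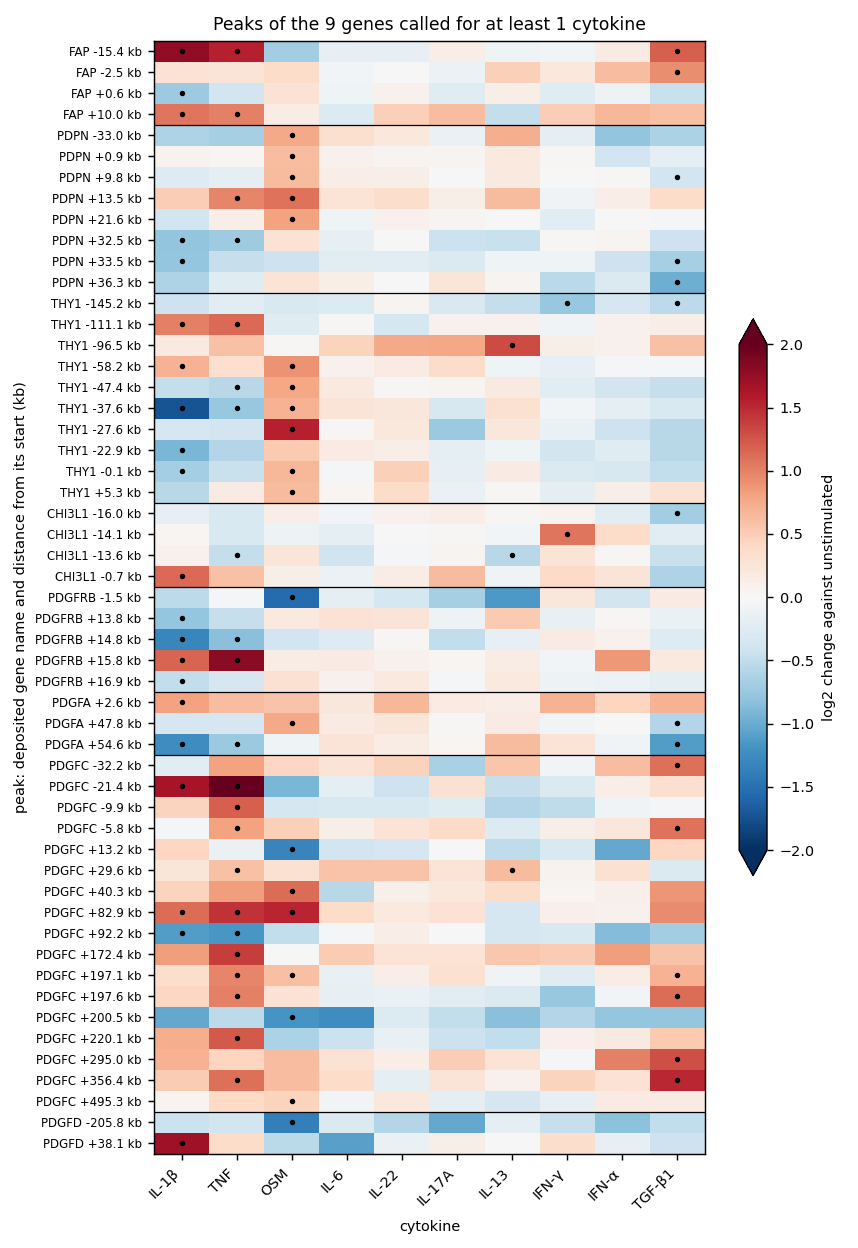
Log2 change against unstimulated cells for each peak of the 9 genes called for at least 1 cytokine, with peaks as rows (deposited gene name and distance from its start in kb), cytokines as columns and colour as the log2 change; a black dot marks a called change. The 83 calls lie in the IL-1β, TNF, OSM, TGF-β1, IL-13 and IFNγ columns, and the IL-6, IL-22, IL-17A and IFNα columns hold none.

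Of the 83 calls, 36 held under every other scaling, pseudocount, filter, choice of groups and after leaving out any 1 library. The other 47 were lost under at least 1 of these, 15 of them under another setting and 46 without 1 library. Those that held were 11 of 21 for IL-1β, 11 of 22 for TNF, 8 of 20 for OSM, 5 of 15 for TGF-β1, 1 of 2 for IFNγ and 0 of 3 for IL-13. By gene they were 9 of 27 for PDGFC, 8 of 17 for THY1, 6 of 12 for PDPN, 4 of 7 each for FAP and PDGFRB, 3 of 6 for PDGFA, 1 of 5 for CHI3L1 and 1 of 2 for PDGFD. With library totals alone OSM had 14 called peaks, 8 of them raised, with median-of-ratios scaling 13, 7 raised, and TGF-β1 had 16 and 15, in both cases 12 raised. Without unstimulated replicate 4, OSM replicate 2 or OSM replicate 3 the OSM count was 11, 12 or 13. The IL-13 count was 1 without unstimulated replicate 3 or 4, the IFNγ count was 1 without unstimulated replicate 1 or 3 or IFNγ replicate 3, IL-6 gave 1 call without IL-6 replicate 1, and IFNα gave 1 or 2 calls without unstimulated replicate 1 or IFNα replicate 2 or 3.

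Of the 9 peaks nearest the main gene starts, 2 were called for any cytokine. These were taken whatever gene the row names, which differs from the planned rule. That rule took the row named for a gene nearest any annotated start of it. It gave 8 start-site peaks, of which none was called. The peak nearest the main start was at 5.56 ± 2.39 per Mb (SD, n = 4) in unstimulated cells for FAP, 9.06 ± 1.96 for PDPN, 15.9 ± 1.27 for PDGFRB, 6.04 ± 1.06 for PDGFC and 9.01 ± 2.07 for PDGFD. Those of CHI3L1 and PDGFA were low, at 1.01 ± 0.136 and 1.22 ± 0.207. None of these 7 start peaks was called for any cytokine, and their smallest limma adjusted p was 0.0678, for PDGFRB. The called ones were the start peaks of THY1 and PDGFRA, which are given with those genes.

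FAP had 4 called peaks among the rows named for it. The clearest lay 15.4 kb before its start, between genes, at chr2:162258639-162259139 (hg38). It was raised by IL-1β, by TNF and, less firmly, by TGF-β1. The central 300 bases of this peak (plus strand, as are all sequences here) are shown because they carry the largest gain at FAP. Capitals in this and the following sequences mark matches, on either strand, to AP-1 (TGANTCA), STAT (TTCNNNGAA), STAT6 (TTC and GAA with 4 bases between), NF-kappa-B (GGG and TTTCC with 2 bases between, or GGG and TCCC with 3), ISRE (TTTC and TTTC with 2 bases between), SMAD (GTCTNGAC), CEBP (TTGCNNAA) or RUNX (TGTGGTT), where N is any base. A match is a run of letters and says nothing of binding. Here they mark 1 STAT match, which overlaps no other, and 11.1% of the central 300-base windows of all 407383 peaks hold a STAT match.
FAP chr2:162258740-162259039: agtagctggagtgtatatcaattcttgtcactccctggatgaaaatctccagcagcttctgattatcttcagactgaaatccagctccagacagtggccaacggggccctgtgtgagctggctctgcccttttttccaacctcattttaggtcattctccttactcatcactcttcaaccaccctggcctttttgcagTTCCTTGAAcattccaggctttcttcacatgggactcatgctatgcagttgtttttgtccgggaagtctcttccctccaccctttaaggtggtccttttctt

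The FAP peak stood at 1.28, 0.941, 1.34 and 1.88 per Mb in unstimulated replicates 1 to 4, and at 5.6, 6.25, 6.35 and 5.09 with IL-1β. The values with TNF were 7.56, 3.73, 3.83 and 5.15. With OSM they were 0.322, 0.840, 0.542 and 0.896. Every IL-1β and TNF library lay above every unstimulated one, and every OSM library lay below. The OSM change against unstimulated cells was not called, and the OSM values lay near 3 reads (0.392 to 0.594 per Mb in the OSM libraries). Most peaks described here and below were chosen with non-overlap as a condition, so it adds no separate support in the comparison that named them. The log2 change was 1.78 ± 0.33 (SE; limma, adjusted p = 2.1e-05) for IL-1β and 1.55 ± 0.33 (adjusted p = 0.000268) for TNF, while the direct difference OSM minus TNF was -2.26 ± 0.33 (adjusted p = 6.73e-09). TGF-β1 gave 5.00, 2.70, 3.03 and 4.58 per Mb, a log2 change of 1.20 (adjusted p = 0.0123) that was not called without unstimulated replicate 2 (0.0666), TGF-β1 replicate 1 (0.0681) or TGF-β1 replicate 4 (0.0626).

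A further FAP peak, in an intron 10.0 kb after the start (chr2:162233184-162233684), moved the same way with both inflammatory cytokines. It stood at 2.98, 2.83, 4.15 and 3.23 per Mb unstimulated, at 8.91, 5.19, 9.17 and 7.04 with IL-1β and at 7.38, 8.23, 6.94 and 5.78 with TNF. Neither stimulated group overlapped the unstimulated one. The log2 changes were 1.07 ± 0.26 (limma, adjusted p = 0.00411) and 1.00 ± 0.26 (adjusted p = 0.00759). The other called FAP peaks, lowered by IL-1β 0.6 kb after the start (log2 change -0.73, adjusted p = 0.022) and raised by TGF-β1 2.55 kb before it (0.93, adjusted p = 0.0168), both depended on single libraries. The first was not called without unstimulated replicate 1 or 3 or IL-1β replicate 2 or 3 (adjusted p 0.0636 to 0.17). The second was not called without unstimulated replicate 1 or TGF-β1 replicate 1 or 3 (0.0865 to 0.129). By position, a row in FAP named LOC101929532, starting at 162196604, rose with TNF from 3.69 ± 0.332 to 10.2 ± 0.72 per Mb. Its log2 change was 1.35 (limma, adjusted p = 3.02e-05), and its alternatives are not given here.

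PDPN peaks were raised mainly by OSM. Of the 38 peaks OSM raised 5 and lowered none, while IL-1β raised none and lowered 2. TGF-β1 raised none and lowered 3, and TNF raised 1 and lowered 1. Of all peaks OSM raised 4.13% and lowered 1.05%, IL-1β 1.44 and 1.75%, TGF-β1 1.1 and 2.87% and TNF 2.68 and 1.46%. The largest of the OSM gains that held under every alternative lay in an intron 21.6 kb after the start, at chr1:13605146-13605646. Its centre holds 1 AP-1 and 1 CEBP match, found in 21.5 and 17.3% of all windows.
PDPN chr1:13605247-13605546: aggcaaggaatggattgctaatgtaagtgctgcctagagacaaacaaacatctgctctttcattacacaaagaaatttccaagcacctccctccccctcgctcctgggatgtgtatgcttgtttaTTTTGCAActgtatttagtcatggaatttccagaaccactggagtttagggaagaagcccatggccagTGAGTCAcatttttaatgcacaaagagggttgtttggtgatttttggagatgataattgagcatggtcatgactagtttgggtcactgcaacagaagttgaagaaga

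The intronic PDPN peak 21.6 kb after the start stood at 26.7, 27.1, 22.9 and 23.6 per Mb in unstimulated cells and at 49.0, 49.1, 40.9 and 38.1 with OSM. The groups did not overlap, and the log2 change was 0.80 ± 0.13 (limma, adjusted p = 1.97e-06). The direct difference OSM minus TNF was 0.68 ± 0.13 (adjusted p = 4e-05). A peak 9.81 kb after the start (chr1:13593391-13593891) behaved alike, at 30.1, 31.6, 33.4 and 26.8 per Mb unstimulated and 51.4, 48.1, 44.9 and 46.0 with OSM. Its log2 change was 0.64 ± 0.12 (adjusted p = 4.55e-05), or 0.41 with median-of-ratios scaling (0.0101) and 0.42 with a trimmed mean over peaks covered in every library (0.00806). The other 3 PDPN peaks raised by OSM were not called under either of these scalings, nor with library totals. TGF-β1 lowered the peak 9.81 kb after the start (-0.39, adjusted p = 0.0361), which was not called under these 3 scalings (0.158 to 0.29).

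At the other end of PDPN, peaks were lowered by different cytokines. A peak in the untranslated end of the gene, 32.6 kb after the start (chr1:13616130-13616630), stood at 16.7, 20.2, 20.0 and 16.2 per Mb unstimulated, 11.5, 7.76, 14.6 and 8.64 with IL-1β and 13.8, 9.66, 8.36 and 12.9 with TNF. All 8 stimulated values were below the lowest unstimulated one. The log2 changes were -0.79 ± 0.16 (limma, adjusted p = 0.000242) and -0.71 ± 0.16 (adjusted p = 0.00116). Beyond the gene's end, at chr1:13619918-13620418, TGF-β1 lowered a peak from 7.50, 10.5, 8.68 and 12.2 to 5.38, 4.92, 4.95 and 3.38 per Mb (log2 change -0.98 ± 0.20, adjusted p = 0.000202). The direct difference TGF-β1 minus IL-13 at this peak was -1.03 ± 0.20 (adjusted p = 2.84e-05). The third peak lowered by TGF-β1, starting at 13617081, was not called with median-of-ratios scaling (adjusted p = 0.0506) nor without unstimulated replicate 3 (0.0688).

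THY1 had 10 called peaks, 8 of them in USP2-AS1. Of the 48 peaks OSM raised 6 and lowered none, IL-1β raised 2 and lowered 3, and TNF raised 1 and lowered 2. Of all peaks OSM raised 4.13% and lowered 1.05%, IL-1β 1.44 and 1.75% and TNF 2.68 and 1.46%. Of the 6 OSM gains, those starting at 119417644, 119423031 and 119460502 were not called under any of 3 other scalings (adjusted p 0.149 to 0.174, 0.175 to 0.199 and 0.064 to 0.0806). The peaks 37.6 and 27.6 kb before the THY1 start are shown because the first had the largest IL-1β loss, and the second the largest OSM gain, among the THY1 peaks. The capitals mark 1 CEBP and 1 RUNX match in the first, and 1 AP-1, 1 STAT and 1 STAT6 match in the second. RUNX and STAT6 matches occur in 7.41 and 8.94% of all windows.
THY1 chr11:119460603-119460902: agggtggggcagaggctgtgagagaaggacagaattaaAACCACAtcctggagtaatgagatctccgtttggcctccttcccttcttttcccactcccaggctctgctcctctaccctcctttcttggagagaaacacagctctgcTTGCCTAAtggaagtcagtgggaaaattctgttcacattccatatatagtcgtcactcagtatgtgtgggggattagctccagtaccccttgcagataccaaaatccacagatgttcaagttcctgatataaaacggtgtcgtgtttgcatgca
THY1 chr11:119450638-119450937: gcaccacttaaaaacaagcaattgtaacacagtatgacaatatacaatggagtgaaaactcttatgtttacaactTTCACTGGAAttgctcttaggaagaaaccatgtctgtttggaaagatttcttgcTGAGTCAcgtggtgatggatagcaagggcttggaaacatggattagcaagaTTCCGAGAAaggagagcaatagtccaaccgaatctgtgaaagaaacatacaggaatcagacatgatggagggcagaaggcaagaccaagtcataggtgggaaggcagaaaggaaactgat

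The THY1 peak at chr11:119460502-119461002 moved in opposite directions with IL-1β and OSM. It stood at 18.8, 18.3, 17.8 and 12.2 per Mb unstimulated and at 5.05, 6.37, 3.68 and 3.90 with IL-1β. With OSM it stood at 33.7, 29.2, 24.9 and 21.6. All IL-1β libraries were below, and all OSM libraries above, all unstimulated ones. The log2 change was -1.73 ± 0.17 for IL-1β (limma, adjusted p = 7.58e-18). TNF gave 6.94, 12.2, 11.4 and 8.55 per Mb and a log2 change of -0.76 ± 0.17 (adjusted p = 0.000572), with 1 TNF value reaching the lowest unstimulated one. The direct difference TNF minus IL-1β was 0.96 ± 0.17 (adjusted p = 1.68e-05) and OSM minus TNF was 1.45 ± 0.17 (adjusted p = 1.51e-13). The OSM gain over unstimulated cells, 0.69 ± 0.17 (adjusted p = 0.00283), was also not called without unstimulated replicate 4 (adjusted p = 0.0618).

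The THY1 peak at chr11:119450537-119451037 was low without stimulation, at 4.25, 2.14, 2.14 and 2.33 per Mb, and stood at 10.1, 7.50, 11.0 and 6.68 with OSM. The lowest OSM library was above the highest unstimulated one. The log2 change was 1.56 ± 0.32 (limma, adjusted p = 0.00024), and OSM minus TNF was 1.92 ± 0.32 (adjusted p = 7.32e-07). Further upstream, OSM raised the peak 47.4 kb before the start from 14.0 ± 3.11 to 23.8 ± 1.40 per Mb (log2 change 0.77, adjusted p = 0.000793) and the peak 58.2 kb before it from 12.4 ± 1.43 to 23.6 ± 2.40 (0.90, adjusted p = 3.58e-05). The second of these, chosen after its values were seen, was also raised by IL-1β, to 20.6 ± 4.18 (0.70, adjusted p = 0.0035, and 0.068 without IL-1β replicate 1).

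Other THY1 peaks followed other cytokines. The peak 111 kb before the start, at chr11:119534061-119534561, stood at 3.45, 4.05, 6.76 and 3.57 per Mb unstimulated, 8.20, 7.95, 10.8 and 10.1 with IL-1β and 8.28, 11.4, 10.9 and 9.58 with TNF. All 8 stimulated values exceeded all 4 unstimulated ones, with log2 changes of 1.01 ± 0.25 (limma, adjusted p = 0.00391) and 1.13 ± 0.25 (adjusted p = 0.000624). IFNγ lowered the peak 145 kb before the start (chr11:119568095-119568595) from 20.2, 19.2, 21.2 and 21.3 to 12.2, 14.8, 10.6 and 10.5 per Mb. This was the 1 IFNγ call that held under every alternative (log2 change -0.76 ± 0.16, adjusted p = 0.000533). TGF-β1 lowered the same peak to 14.3 per Mb (-0.52, adjusted p = 0.0341), but not past the threshold under 3 other scalings (0.115 to 0.194) or without any 1 unstimulated library or TGF-β1 replicate 2 or 4 (0.0525 to 0.181). IL-13 raised the peak starting at 119519384 (1.31, adjusted p = 0.0491), a call lost under 5 other settings (0.0521 to 0.0866) and without unstimulated replicate 1, 2 or 3 or any 1 IL-13 library (0.0703 to 0.183). At the THY1 start itself (chr11:119423031-119423531) the level was 8.72 ± 0.95 unstimulated, 5.24 ± 0.606 with IL-1β and 14.2 ± 1.21 with OSM. The log2 changes of -0.68 (adjusted p = 0.0295) and 0.67 (adjusted p = 0.0255) were not called without each of 5 single libraries in turn, which were unstimulated replicates 1 and 3 and IL-1β replicates 1, 2 and 4 for the first (0.0616 to 0.116), and unstimulated replicates 2 and 4 and OSM replicates 1, 2 and 3 for the second (0.0564 to 0.099). The OSM change at the THY1 start was 0.45 to 0.47 under the 3 other scalings and was not called under any of them.

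CHI3L1 had the most accessible of the 315 peaks, 16.0 kb before its start, between genes, at chr1:203202417-203202917. It stood at 47.2, 43.1, 52.2 and 42.0 per Mb unstimulated and at 32.6, 26.0, 32.3 and 23.2 with TGF-β1. The groups did not overlap, and the log2 change was -0.69 ± 0.11 (limma, adjusted p = 2.61e-07), with TGF-β1 minus IL-13 at -0.73 ± 0.11 (adjusted p = 1.37e-08). The other CHI3L1 calls were smaller or less stable. They were a loss with IL-13 and with TNF 13.6 kb before the start (-0.55 and -0.48, adjusted p = 0.0165 and 0.0278), a gain with IFNγ 14.1 kb before it (1.07, adjusted p = 0.0188) and a gain with IL-1β 0.74 kb before it (1.14, adjusted p = 0.0251). Each was lost on leaving out single libraries. The IL-13 call was lost without IL-13 replicate 2 or unstimulated replicate 4 (adjusted p 0.0647 to 0.157), and the TNF call without TNF replicate 2 or 3 or any unstimulated library (0.0524 to 0.147). The IFNγ call was lost without IFNγ replicate 3 or unstimulated replicate 1, 2 or 3 (0.057 to 0.113), and the IL-1β call without replicate 1 or 3 of either group (0.0514 to 0.175).

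**Figure D2:**
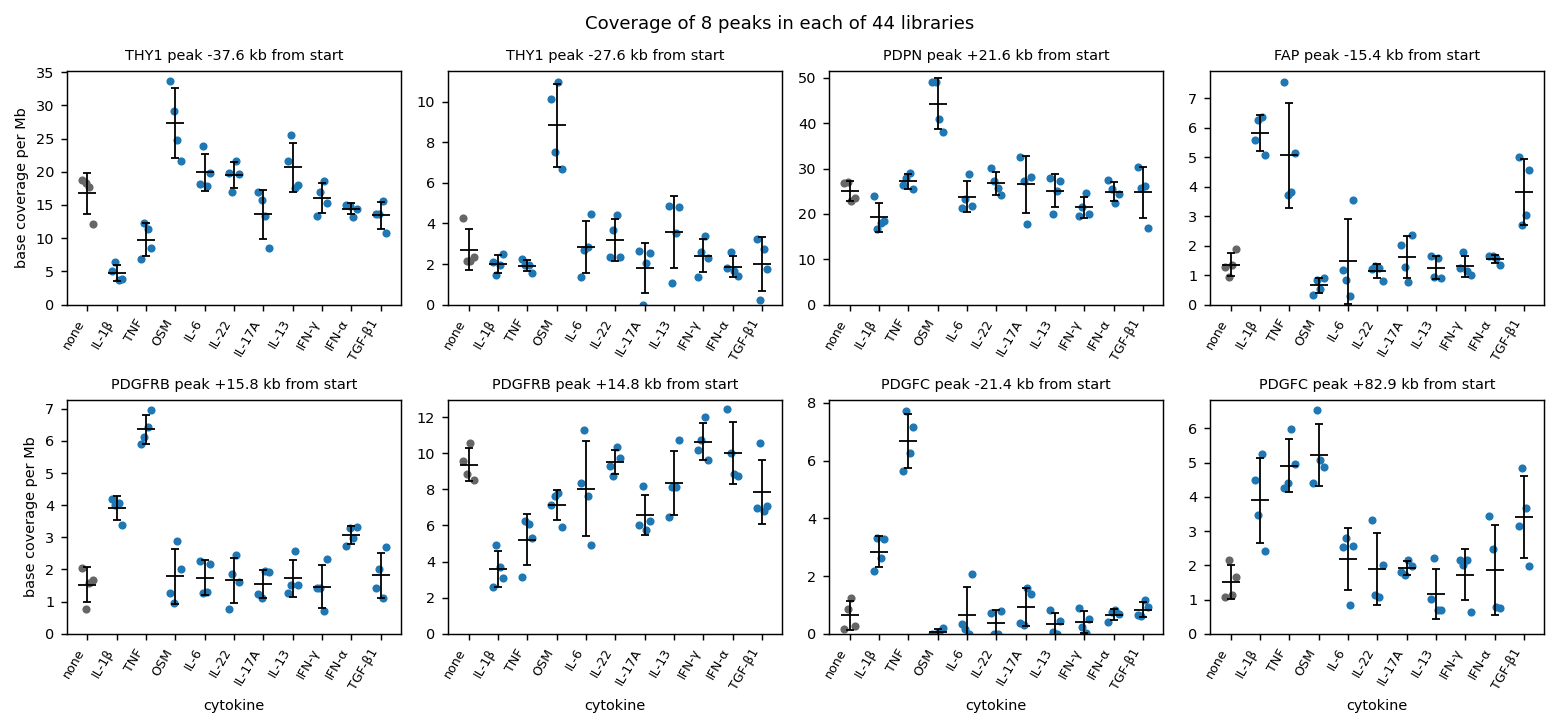
Base coverage per Mb of 8 peaks in each of the 44 libraries, with cytokines on the x axis, points for libraries and black bars for the group mean ± SD. At the PDGFC peak 21.4 kb before the start the 4 TNF libraries (5.62 to 7.70 per Mb) stand above those of every other cytokine, though TNF minus IL-1β was not called there. At the THY1 peak 37.6 kb before the start the 4 IL-1β libraries (3.68 to 6.37 per Mb) stand below those of every other cytokine.

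Of the receptors, PDGFRA was covered by name only through 3 rows centred in FIP1L1, none of which was called for any cytokine. By position, 43 rows lie in PDGFRA (chr4:54229280-54298245) or within 2 kb before it, and 10 of them (23.3%) were called for at least 1 cytokine, as 13.3% of all peaks were. OSM raised 4 (9.3%, beside 4.13% of all peaks) and lowered none, TGF-β1 raised none and lowered 3, and IL-1β and TNF each raised 3 and lowered 1. Of all peaks TGF-β1 raised 1.1% and lowered 2.87%, IL-1β 1.44 and 1.75% and TNF 2.68 and 1.46%. No other cytokine had a call in the 43 rows. Of these 15 calls 5 held under every alternative, and 3 of the 4 OSM gains, in the rows starting at 54227996, 54228977 and 54256810, were not called under any of 3 other scalings (adjusted p 0.0977 to 0.155). This way of taking rows was chosen after the values were seen.

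The row over the PDGFRA start (chr4:54228977-54229477) stood at 12.7, 14.0, 8.71 and 14.0 per Mb unstimulated, 22.7, 18.4, 18.3 and 20.7 with OSM, 10.0, 5.54, 6.89 and 6.89 with IL-1β and 10.9, 6.78, 8.34 and 5.94 with TGF-β1. The OSM libraries stood above those of the other 3 groups, while the IL-1β and TGF-β1 groups overlapped the unstimulated one. The log2 changes were 0.69 ± 0.18 for OSM (limma, adjusted p = 0.00719), -0.72 ± 0.18 for IL-1β (0.00549) and -0.61 ± 0.18 for TGF-β1 (0.0286), and OSM minus TNF was 1.13 ± 0.18 (2.36e-07). The OSM call was lost under 3 other scalings (adjusted p 0.0977 to 0.116) and without unstimulated replicate 3 (0.0977), and the IL-1β call without IL-1β replicate 2 (0.0673). The TGF-β1 call was lost under the same scalings (0.0886 to 0.144) and without unstimulated replicate 1, 2 or 4 or TGF-β1 replicate 2 or 4 (0.08 to 0.191).

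Within PDGFRA the changes were larger. The row 52.3 kb after the start (chr4:54281314-54281814) stood at 17.8, 15.6, 18.4 and 16.3 per Mb unstimulated and at 10.2, 7.08, 6.56 and 5.37 with TGF-β1 (log2 change -1.20 ± 0.17, limma, adjusted p = 5.75e-09). The row 24.7 kb after the start rose with TNF from 2.11, 2.02, 1.17 and 1.49 to 8.32, 5.20, 5.15 and 7.28 per Mb (1.67 ± 0.32, adjusted p = 4.64e-05). The row 45.7 kb after the start rose with TNF from 0.710, 0.364, 0.606 and 0.308 to 4.04, 3.32, 3.44 and 3.15 (2.02 ± 0.38, adjusted p = 3.24e-05). In each of these rows the stimulated and unstimulated libraries did not overlap. At the row 45.7 kb after the start the unstimulated values lay near 3 reads (0.406 to 0.682 per Mb in these libraries). The size of its change therefore depends on the pseudocount. Summed over the gene by position, PDGFRA rose with OSM from 144 ± 6.96 to 181 ± 12.6 per Mb (0.33, adjusted p = 0.000162) and fell with TGF-β1 to 112 ± 10.7 (-0.37, adjusted p = 5.45e-05), and these sums were not recomputed under other scalings.

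**Figure D3:**
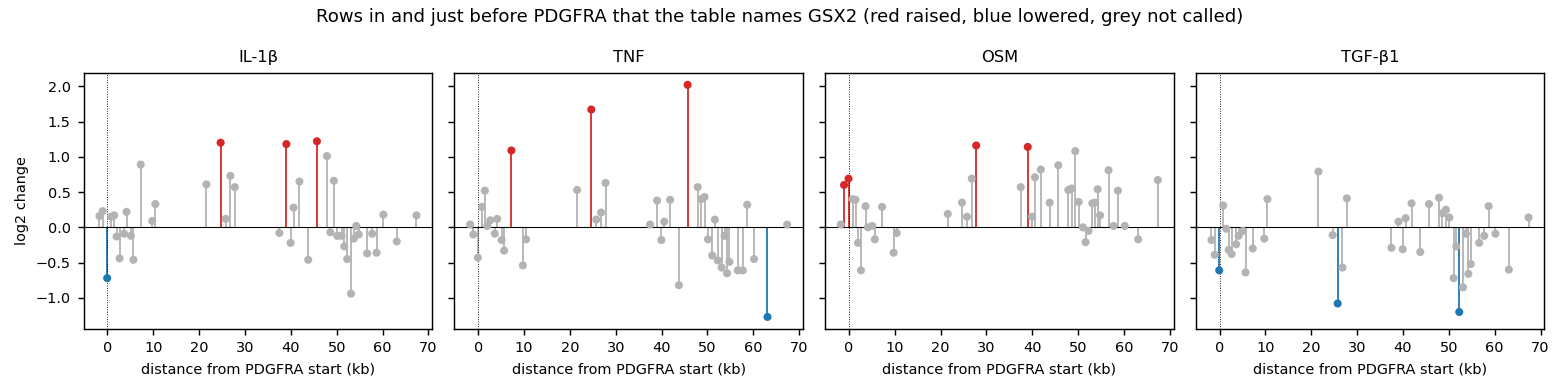
Log2 change against unstimulated cells of the 43 rows in and just before PDGFRA that the table names GSX2, plotted against distance from the PDGFRA start in kb, with 1 panel per cytokine and called rows in red (raised) or blue (lowered). The called TGF-β1 rows are all lowered, with the largest loss, -1.20, at 52.3 kb, and the called OSM rows are all raised.

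PDGFRB had 5 called peaks. A pair of intronic ones, with starts 973 bases apart, 15.8 and 14.8 kb after the gene start, moved in opposite directions with the same cytokines. The centre of the second is shown because it had the largest IL-1β loss among the PDGFRB peaks, and it holds no match to the motifs marked here.
PDGFRB chr5:150140881-150141180: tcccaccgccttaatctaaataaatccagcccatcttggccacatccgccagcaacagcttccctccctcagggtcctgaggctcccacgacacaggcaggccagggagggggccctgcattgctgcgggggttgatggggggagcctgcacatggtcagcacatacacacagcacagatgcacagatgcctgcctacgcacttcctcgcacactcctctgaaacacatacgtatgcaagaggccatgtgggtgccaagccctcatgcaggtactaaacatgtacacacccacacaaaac

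At the first of the pair (chr5:150139807-150140307) the unstimulated values were 2.05, 0.761, 1.59 and 1.68 per Mb. They were 5.92, 6.13, 6.42 and 6.97 with TNF and 4.20, 4.00, 4.07 and 3.37 with IL-1β. TNF libraries were above all IL-1β libraries, which were above all unstimulated ones. The direct difference TNF minus IL-1β was not called at this peak. The log2 change was 1.81 ± 0.31 for TNF (limma, adjusted p = 3.12e-06) and 1.17 ± 0.31 for IL-1β (adjusted p = 0.011, and 0.124 without unstimulated replicate 2). OSM minus TNF was -1.66 ± 0.31 (adjusted p = 1.59e-05).

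At the second of the pair (chr5:150140780-150141280) the unstimulated values were 9.55, 8.83, 10.6 and 8.52 per Mb. They were 2.59, 4.90, 3.69 and 3.09 with IL-1β and 3.17, 6.27, 6.05 and 5.30 with TNF. Both stimulated groups lay below all unstimulated libraries and overlapped each other. The log2 change was -1.30 ± 0.21 for IL-1β (limma, adjusted p = 6.19e-07) and -0.83 ± 0.21 for TNF (adjusted p = 0.00489, and 0.113 without TNF replicate 1). A further PDGFRB peak, 13.8 kb after the start, was lowered by IL-1β from 11.2 ± 2.17 to 6.28 ± 0.346 (-0.77, adjusted p = 0.00299).

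Of the ligands, PDGFA had 3 called peaks, and the 2 strongest lay beyond the 3' end of the gene. The peak 54.6 kb after the start (chr7:465029-465529) stood at 15.6, 12.3, 7.89 and 8.66 per Mb unstimulated, 4.71, 3.84, 4.57 and 3.97 with IL-1β and 3.82, 6.20, 4.50 and 4.41 with TGF-β1. Both stimulated groups lay below all unstimulated libraries, with log2 changes of -1.24 ± 0.19 (limma, adjusted p = 2.94e-07) and -1.12 ± 0.19 (adjusted p = 6.13e-06). TGF-β1 minus IL-13 was -1.75 ± 0.19 (adjusted p = 1.77e-14). The peak 47.8 kb after the start (chr7:471828-472328) stood at 14.7, 17.0, 15.0 and 14.5 unstimulated and 24.5, 29.7, 24.1 and 25.6 with OSM (0.75 ± 0.16, adjusted p = 0.00053), with no overlap. The direct difference OSM minus TNF there was 1.09 ± 0.16 (adjusted p = 1.45e-08). TGF-β1 lowered this peak (-0.59, adjusted p = 0.0131), but the call was lost under 3 other scalings (0.056 to 0.107) and without unstimulated replicate 2 or TGF-β1 replicate 1 (0.0676 and 0.166). TNF lowered the first of the 2 (-0.75, adjusted p = 0.00643, and 0.127 without unstimulated replicate 1).

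PDGFC had the most peaks and the most calls. Of its 87 peaks 48 are centred in the gene, which is 211.3 kb long. Of the 87, TNF raised 10 and lowered 1, and TGF-β1 raised 6 and lowered none. OSM raised 4 and lowered 2, and IL-1β raised 2 and lowered 1. Of all peaks TNF raised 2.68% and lowered 1.46%, TGF-β1 1.1 and 2.87%, OSM 4.13 and 1.05% and IL-1β 1.44 and 1.75%. Of the 6 OSM calls 1 held under every alternative. The gains in the peaks starting at 156476211 and 156774443 were not called under any of 3 other scalings (adjusted p 0.35 to 0.396 and 0.213 to 0.243), nor the gain at 156931238 with median-of-ratios scaling or a trimmed mean over peaks covered in all libraries (0.0553 and 0.051). The loss at 156958314 was not called with a pseudocount of 2 (0.0584) nor without unstimulated replicate 3 or OSM replicate 2, 3 or 4 (0.0614 to 0.167), and the loss at 156771081 not without unstimulated replicate 3 or 4 or OSM replicate 1 or 4 (0.0527 to 0.115). Among PDGFC peaks, the largest TNF gain lay 21.4 kb before the start, between genes, and the largest OSM gain lay in an intron 82.9 kb after it. The first window holds 1 NF-kappa-B match, found in 7.6% of all windows, and the second 1 AP-1 match.
PDGFC chr4:156993045-156993344: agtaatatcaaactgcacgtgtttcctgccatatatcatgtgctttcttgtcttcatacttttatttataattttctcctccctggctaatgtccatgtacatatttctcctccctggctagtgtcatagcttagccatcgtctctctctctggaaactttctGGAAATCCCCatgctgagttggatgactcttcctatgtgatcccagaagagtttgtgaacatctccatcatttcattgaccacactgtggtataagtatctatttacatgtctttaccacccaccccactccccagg
PDGFC chr4:156888778-156889077: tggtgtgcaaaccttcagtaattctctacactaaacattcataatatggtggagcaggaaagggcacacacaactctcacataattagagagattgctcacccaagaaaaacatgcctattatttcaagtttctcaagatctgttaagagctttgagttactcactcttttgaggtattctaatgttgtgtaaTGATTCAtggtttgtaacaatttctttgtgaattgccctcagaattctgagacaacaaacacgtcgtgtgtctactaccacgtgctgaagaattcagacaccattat

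The PDGFC peak at chr4:156992944-156993444 was close to the level of a few reads without stimulation, at 0.177, 0.850, 1.25 and 0.267 per Mb, and stood at 5.62, 7.70, 6.26 and 7.17 with TNF. With IL-1β it stood at 2.18, 3.30, 2.63 and 3.27. With OSM it was at 0, 0, 0.0581 and 0.200, a change against unstimulated cells that was not called. TNF libraries were all above the IL-1β libraries, and these above all unstimulated ones. The direct difference TNF minus IL-1β was not called at this peak. The log2 change was 2.76 ± 0.39 for TNF (limma, adjusted p = 6.02e-09), the largest called change against unstimulated cells among the 315 peaks, and 1.65 ± 0.39 for IL-1β (adjusted p = 0.00266). A pseudocount of 0.5 per Mb was added before the logarithm, which makes changes from such low levels look smaller, and with 2 per Mb the values were 1.73 and 0.89, both still called. OSM minus TNF was -3.68 ± 0.39 (adjusted p = 1.78e-15).

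The PDGFC peak at chr4:156888677-156889177 was raised by OSM and by TNF. It stood at 1.09, 2.15, 1.13 and 1.67 per Mb unstimulated and at 4.42, 6.53, 5.08 and 4.87 with OSM, with no overlap (log2 change 1.53 ± 0.31, limma, adjusted p = 0.00021). TNF gave 4.91 ± 0.779 (1.45, adjusted p = 0.000423). IL-1β gave 3.90 ± 1.23 (1.12, adjusted p = 0.0186, but 0.0754 to 0.121 without unstimulated replicate 1 or 3 or IL-1β replicate 1 or 3).

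TGF-β1 and TNF both raised 4 PDGFC peaks, and at 2 of these both calls held under every alternative. The first, the peak 5.81 kb before the start (chr4:156977356-156977856), stood at 11.4, 8.36, 12.0 and 8.91 per Mb unstimulated, 25.6, 22.5, 21.0 and 19.5 with TGF-β1 and 20.1, 19.1, 18.2 and 14.6 with TNF. The log2 changes were 1.09 ± 0.17 (limma, adjusted p = 5.61e-07) and 0.80 ± 0.17 (adjusted p = 0.000515). The second, the peak 356 kb after the start (chr4:156615177-156615677), lay beyond the 3' end of the gene. It stood at 5.15, 3.77, 4.69 and 2.46 unstimulated, 14.7, 11.4, 10.5 and 11.3 with TGF-β1 and 11.7, 10.2, 6.78 and 7.76 with TNF (1.5 ± 0.23, adjusted p = 3.26e-07, and 1.10 ± 0.23, adjusted p = 0.000335). In both peaks all stimulated libraries of these groups exceeded all unstimulated ones. At the other two, starting at 156773942 and 156774443, the TGF-β1 changes were 1.11 (adjusted p = 0.0139) and 0.70 (0.00928) and the TNF changes 1.00 (0.0328) and 0.97 (3.05e-05). Of these only the TNF gain at 156774443 held on leaving out any 1 library.

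PDGFD had 2 called peaks among the rows named for it. The intronic peak 38.1 kb after its start (chr11:104125772-104126272) stood at 0.777, 0.427, 0.879 and 1.54 per Mb unstimulated and at 3.61, 4.40, 3.17 and 4.38 with IL-1β, with no overlap (log2 change 1.69 ± 0.38, limma, adjusted p = 0.00114). TNF minus IL-1β was -1.33 ± 0.38 (adjusted p = 0.0443), a call lost without any 1 IL-1β library or TNF replicate 1, 3 or 4 (0.0573 to 0.208). The other, 206 kb before the start, was among the 4 peaks lowered by OSM. The OSM means of these 4 ran from 0.0367 to 0.845 per Mb and their unstimulated means from 0.947 to 2.49. The PDGFD call was lost without unstimulated replicate 3 or 4 or OSM replicate 2 or 3 (adjusted p 0.0668 to 0.0747). By position, rows in PDGFD named DDI1 or MIR4693 also had calls. TNF raised those starting at 103959539 (1.01, limma, adjusted p = 0.000386) and 103960927 (0.97, 0.0146). IL-1β lowered that at 103993477 (-1.23, 0.00088), and OSM those at 103936002 (-1.23, 0.0377) and 103947515 (-0.93, 0.0472). The alternatives for these calls are not given here.

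**Figure D4:**
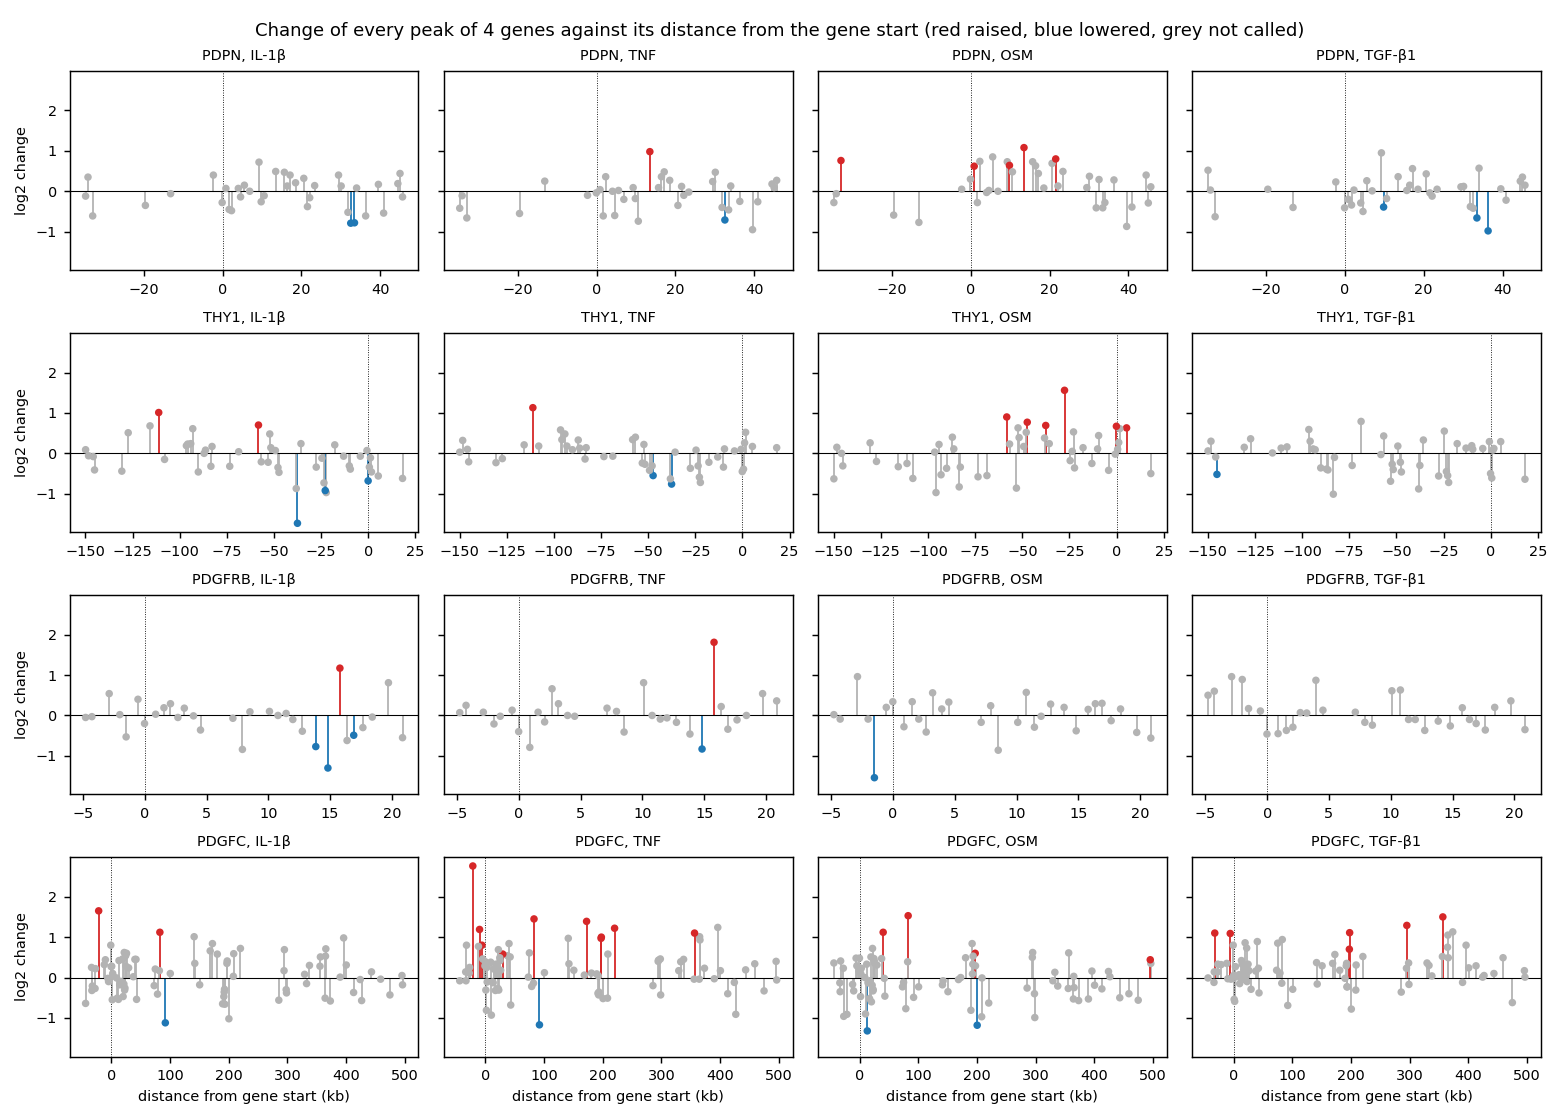
Log2 change against unstimulated cells of every peak of PDPN, THY1, PDGFRB and PDGFC against its distance from the gene start in kb, with 1 row of panels per gene, 1 column per cytokine, and called peaks in red (raised) or blue (lowered) and others in grey. Called peaks are spread over each locus, and PDGFC calls reach from 32.2 kb before the start to 495 kb after it, past the gene's length of 211.3 kb.

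The matches were also counted over all members. Of the 315 windows 21.3% held an AP-1 match, against 21.5% of all windows, 8.57% an NF-kappa-B match against 7.6%, and 12.1% a STAT match against 11.1%. TEAD (GGAATG) and E-box (CANNTG) matches, not marked in the sequences, were in 26.0 and 84.8% against 19.8 and 81.0%. Among the called peaks, AP-1 matches were in 10 of 16 raised by OSM, 3 of 15 raised by TNF and 3 of 10 raised by IL-1β. They were also in 4 of 7 lowered by TGF-β1. In the same order of OSM, TNF and IL-1β, 0, 5 and 3 of the raised peaks held an NF-kappa-B match. For TEAD these counts were 8, 7 and 3, and for STAT 3, 4 and 1. The numbers of called peaks are small. These shares were not tested.

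Direct comparisons between cytokines called 8 of the 315 peaks for TNF against IL-1β, 6 higher and 2 lower with TNF, where 1.32% of all peaks were called (1.1% higher and 0.218% lower). Leaving out any 1 IL-1β library or TNF replicate 1, 2 or 3 left 4 or 5 of them. For OSM against TNF 39 were called, 24 higher and 15 lower with OSM (7.23% of all peaks, 4.74% higher and 2.5% lower), and for TGF-β1 against IL-13 41 were called, 18 higher and 23 lower with TGF-β1 (8.75%, 3.19% higher and 5.56% lower). These splits moved with the scaling. With library totals 16 of 32 were higher with OSM, and with median-of-ratios scaling 15 of 34. For TGF-β1 against IL-13 the balance turned, with 30 of 43 and 31 of 42 higher with TGF-β1, of which 31 and 29 were among the 41.

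Summed over all rows named for a gene, 13 of the 90 pairs of gene and cytokine were called by limma over 23387 genes, where 11.2% of all such pairs were. PDPN summed to 148.7, 162, 173 and 147 per Mb in unstimulated cells and to 230, 222, 207 and 210 with OSM. No other group overlapped OSM, and the log2 change was 0.46 ± 0.07 (adjusted p = 1.19e-07). THY1 behaved alike, at 200, 194, 202 and 165 unstimulated and 261, 270, 246 and 232 with OSM (0.41 ± 0.07, adjusted p = 2.23e-06). Under 3 other scalings the OSM changes were 0.23 to 0.25 for PDPN and 0.18 to 0.20 for THY1, both still called. Of all genes 42.6% were called for OSM, with 34.9% higher, 28% for TGF-β1, 14% for TNF and 11.4% for IL-1β. PDPN fell with IL-1β to 128 ± 10.8 (-0.30, adjusted p = 0.000822), and IL-1β also lowered THY1 to 161 ± 13.6 (-0.24, adjusted p = 0.0103, but 0.0522 to 0.0636 without unstimulated replicate 1 or 3 or IL-1β replicate 2, and -0.47 by position) and PDGFRB from 147 ± 8.69 to 123 ± 2.41 (-0.25, adjusted p = 0.00794).

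The PDGFC sum rose with TNF from 231, 228, 245 and 231 to 310, 326, 294 and 313 per Mb (0.41 ± 0.06, limma, adjusted p = 2.59e-07), and the FAP sum rose with TGF-β1 from 53.9 ± 3.75 to 70.4 ± 5.63 (0.38, adjusted p = 0.000664). The CHI3L1 sum fell with TGF-β1 from 97.7 ± 3.17 to 69.4 ± 3.67 (-0.49, adjusted p = 3.41e-06, and -0.31 with median-of-ratios scaling), but over the 4 rows in CHI3L1 or within 2 kb before it the change was -0.25 (adjusted p = 0.51). PDGFC sums with TGF-β1 (0.29, adjusted p = 0.000158) and OSM (0.26, adjusted p = 0.000328) were also called, the first rising to 0.47 with median-of-ratios scaling and not called by position (0.0628) and the second not under 3 other scalings (0.397 to 0.644). The CHI3L1 sum with TNF (-0.27, adjusted p = 0.0133) was not called without TNF replicate 3 (0.0714). The PDPN and THY1 sums with TGF-β1 (-0.25 and -0.21) were called and were not without TGF-β1 replicate 4 (0.0573 and 0.0699), nor the THY1 sum without unstimulated replicate 1 or 3 (0.055 and 0.0612), nor either under 3 other scalings. The PDGFA, PDGFD and PDGFRA sums over rows taken by name were not called for any cytokine. By position the PDGFA sum rose with TGF-β1 (0.42, limma, adjusted p = 0.00438), IL-13 (0.38, 0.0287) and IL-1β (0.36, 0.0303). The PDGFD sum by position fell with TGF-β1 (-0.21, 0.0368). These sums by position were not recomputed under other scalings.

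**Figure D5:**
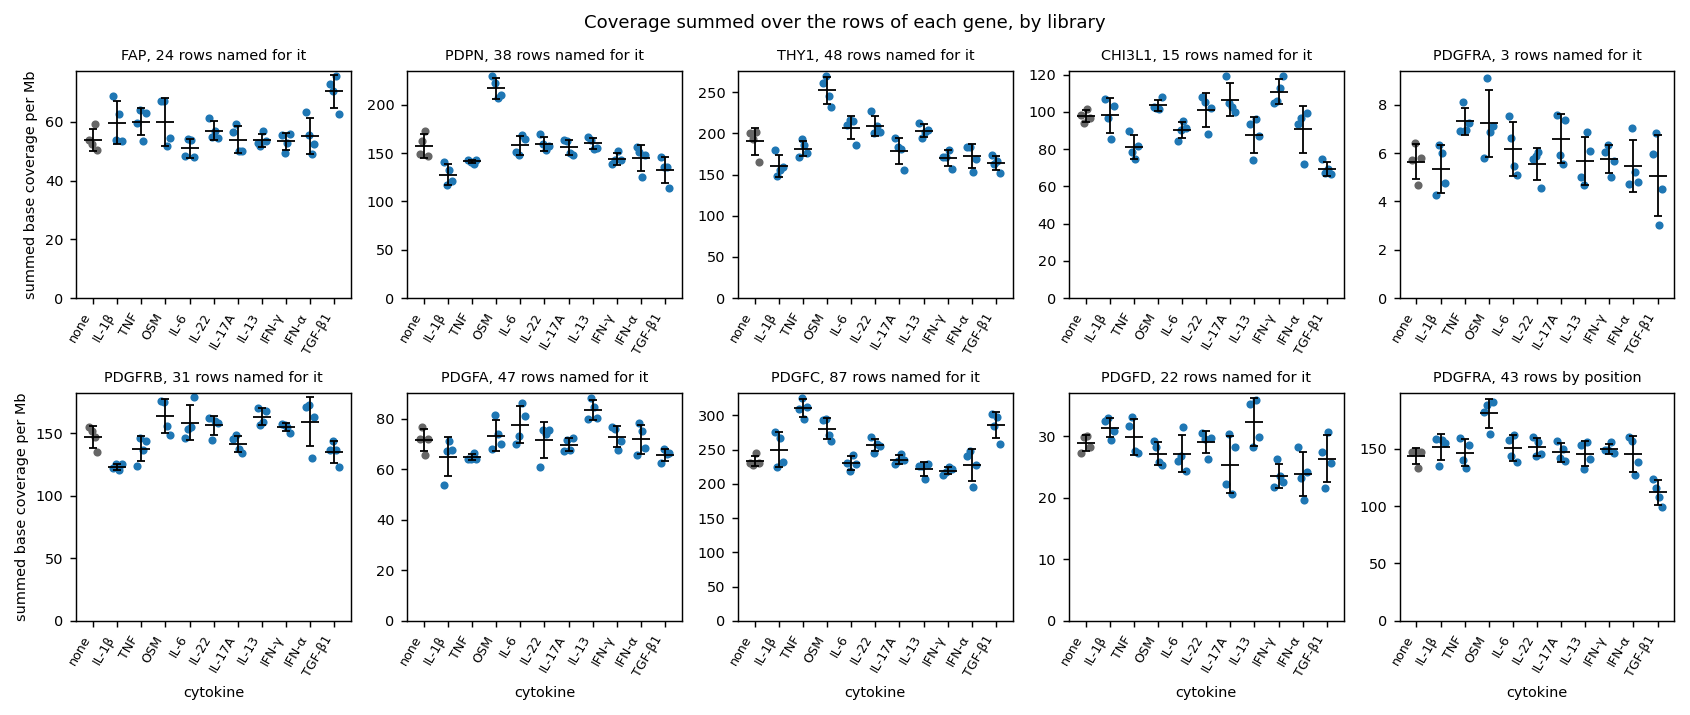
Base coverage per Mb summed over the rows named for each gene in each of the 44 libraries, with cytokines on the x axis, points for libraries and black bars for the group mean ± SD, and a last panel for PDGFRA by position. For PDPN and THY1 the 4 OSM libraries (207 to 230 and 232 to 270 per Mb) stand above those of every other group.

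By group mean, the sums ran from OSM (217 per Mb) to IL-1β (128) for PDPN and from OSM (252) to IL-1β (161) for THY1, where only the first place was free of overlap with its neighbour. TNF was highest for PDGFC (311), TGF-β1 for FAP (70.4), OSM for PDGFRB (164) and IL-13 for PDGFA (83.4), all overlapping the next group. The genes whose summed coverage followed the 11 group means most closely were RARA and MAT2A for PDPN (Pearson r = 0.98 each), FGGY for THY1 (0.983), LRRC17 for PDGFC (0.983) and PLCXD3 for FAP (0.953), as a description over 11 means that share library composition.

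Other genes of the PDGF pathway were counted over all their rows, 516 for 16 genes. TNF raised 19 and lowered 6, OSM raised 28 and lowered 1, TGF-β1 raised 9 and lowered 25, IL-1β raised 11 and lowered 5 and IFNγ raised 13 and lowered 1. Of the 516 rows 4.84, 5.62, 6.59, 3.1 and 2.71% were called for these cytokines, beside 4.14, 5.18, 3.97, 3.19 and 1.57% of all peaks. The median log2 changes of these 516 rows were 0.025, -0.03, 0.054, 0.061 and 0.003. Of all peaks TNF raised 2.68% and lowered 1.46%, OSM 4.13 and 1.05%, TGF-β1 1.1 and 2.87% and IL-1β 1.44 and 1.75%. The counts of this list and the next were made under the main scaling only. The OSM and TGF-β1 splits of the 315 peaks moved with the scaling. PDGFB, which encodes the remaining classical ligand, had a peak raised by TNF with a log2 change of 1.97 (limma, adjusted p = 5.79e-08), and NRP1, a co-receptor, had a row raised by OSM by 1.5 (adjusted p = 5.5e-15). Of the 16 rows of PLAU, the urokinase protease, TGF-β1 lowered 8 and raised 1, where 2.87% of all peaks were lowered and 1.1% raised. Over all 516 rows, IL-13 raised 4 and lowered 4 (1.55%, beside 1.4% of all peaks), and IFNα raised 1 and lowered 1 (0.388%, beside 0.651%). IL-6, IL-22 and IL-17A each raised 1 of the 516 (0.194%), beside 0.0646, 0.084 and 0.0305% of all peaks.

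Other stromal surface and activation markers had 753 rows for 16 genes. TNF raised 41 and lowered 12, IL-1β raised 11 and lowered 14, OSM raised 21 and lowered 5, TGF-β1 raised 13 and lowered 24, IL-13 raised 21 and lowered 5, IFNγ raised 15 and lowered none and IFNα raised 8 and lowered 2. IL-6, IL-22 and IL-17A had no call. For TNF, IL-1β, OSM and TGF-β1 these are 7.04, 3.32, 3.45 and 4.91% of the 753 rows, beside 4.14, 3.19, 5.18 and 3.97% of all peaks. For IL-13, IFNγ and IFNα they are 3.45, 1.99 and 1.33%, beside 1.4, 1.57 and 0.651%. The median log2 changes for TNF, IL-1β, OSM and TGF-β1 were 0.04, -0.011, -0.09 and 0.075. CDH11, a cadherin of mesenchymal cells, had 10 of 166 rows raised by TNF, where 2.68% of all peaks were, the largest by 3.31 (limma, adjusted p = 1.02e-12).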

How the data were processed

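ATAC-seq libraries of Ccd18-Co fibroblasts, 4 for each of 11 groups taken from the sample titles, were analysed on hg38. The authors deposited 1 table of 407383 peaks, each with end minus start of 500 (the submitters' processing notes name MACS2 and hg38), whose values are the base coverage signal of each library in each peak; the deposited values are not normalized. Here each value was divided by the library total in Mb and by a trimmed-mean composition factor (30% of log ratios and 5% of means trimmed at each end), and log2(value + 0.5) was fitted with limma 3.58.1 (R 4.3.3; empirical Bayes with a trend) on all 44 libraries with group as the only term. Peaks with a log2 mean at or under -3 were left out (227), leaving 407156. Adjusted p-values are Benjamini-Hochberg over all tested peaks of a comparison, two-sided. Sums over the rows of a gene were fitted alike over 23387 genes. The smallest library, IL-6 replicate 4, had 27.1% of peaks at 0; depth limits low peaks most, and reads were not counted as molecules.

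The members and gene lists were chosen with earlier results of these data known. Named peaks were, per gene, the start-site peak and the 2 raised and 2 lowered peaks with the largest changes, with others named as chosen later. Distances run from the main annotated start to the peak's centre (GENCODE release of the reference used here). Motif matches were counted in the central 300 bases of each peak. Alternatives were library totals, median-of-ratios factors, a pseudocount of 2, no filter, only the groups compared, the replicate number as a block, each replicate left out and, chosen after seeing the data, a trimmed mean over peaks covered in all libraries and rows assigned by position. Same-numbered replicates were not treated as pairs. The sequence of 1 PDGFRB peak is not reported here.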

Additional observations from a re-analysis of the deposited data

Results flagged for a closer look

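In 4 of 99 sets of 4 libraries (a gene's summed coverage in a group) 1 library stood apart past Dixon's 95% critical value for 4 samples, and chance flags about 1 in 20 such sets. The PDGFA sum was 66.5 per Mb in TNF replicate 3 against 64.1 to 64.3 in the others, and 61.1 in IL-22 replicate 1 against 73.9 to 75.7. The PDGFC sum was 245 in unstimulated replicate 3 against 228 to 231, and 207 in IL-13 replicate 3 against 226 to 229.

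At 29 named comparisons the responses to a pair of cytokines differed by a direct limma test, and 17 of them held under every alternative. They lay among 32 named peaks and 3 pairs of cytokines. These peaks were picked mostly for large called changes, so the count follows in part from that choice. Of all peaks 1.32% were called for TNF against IL-1β, 7.23% for OSM against TNF and 8.75% for TGF-β1 against IL-13. Values here are log2 differences, with adjusted p. OSM was above TNF at the CHI3L1 peak starting at 203200004 (0.71, 6.24e-05), the CHI3L1 peak at 203202417 (0.44, 0.0021), the FAP peak at 162242594 (0.65, 0.032), the PDGFA peaks at 465029 (0.67, 0.0144) and 471828 (1.09, 1.45e-08) and the PDGFRB peak at 150141757 (0.66, 0.0105). OSM was also above TNF at the PDPN peaks at 13605146 (0.68, 4e-05) and 13616130 (1.00, 3.43e-07) and the THY1 peaks at 119450537 (1.92, 7.32e-07) and 119460502 (1.45, 1.51e-13). OSM minus TNF was negative at the FAP peaks at 162233184 (-0.85, 0.0236) and 162258639 (-2.26, 6.73e-09), the PDGFC peak at 156992944 (-3.68, 1.78e-15), the PDGFRB peak at 150139807 (-1.66, 1.59e-05) and the THY1 peak at 119534061 (-1.38, 5.78e-06). Under 3 other scalings OSM minus TNF was not called at the peaks at 203202417 (adjusted p 0.0578 to 0.141), 162242594 (0.145 to 0.201), 465029 (0.0921 to 0.14) and 150141757 (0.0726 to 0.117). The last 3 were also lost without single OSM or TNF libraries (0.0575 to 0.2), as was the difference at 162233184 (0.0614 to 0.106).

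TGF-β1 minus IL-13 was negative at the CHI3L1 peak at 203202417 (-0.73, 1.37e-08), the PDGFA peaks at 465029 (-1.75, 1.77e-14) and 471828 (-0.75, 0.0002), the PDGFRB peak at 150141757 (-0.68, 0.00683), the PDPN peak at 13619918 (-1.03, 2.84e-05) and the THY1 peaks at 119422375 (-0.75, 0.0111) and 119460502 (-0.60, 0.00824). It was positive at the FAP peaks at 162233184 (1.08, 0.00156) and 162258639 (1.29, 0.00266) and the PDGFC peak at 156888677 (1.27, 0.00177). TNF minus IL-1β was -0.56 at the CHI3L1 peak at 203200004 (0.0123), -1.33 at the PDGFD peak at 104125772 (0.0443), 0.50 at the PDPN peak at 13605146 (0.0241) and 0.96 at the THY1 peak at 119460502 (1.68e-05). TGF-β1 minus IL-13 was not called under 3 other scalings at 119422375 (adjusted p 0.0576 to 0.0868) and 119460502 (0.0674 to 0.115), nor under 2 of them at 150141757 (0.0707 and 0.0808), and these 3 and the difference at 162233184 were lost without 1 or 2 single libraries (0.0653 to 0.0863). Of the TNF minus IL-1β differences only the last held on leaving out any 1 library (0.0514 to 0.208 for the others).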

How the results depend on the processing

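Of 140 single calls recomputed, 64 held under every alternative, 33 were lost under another setting and 71 without 1 library. The OSM count of 20 became 13 with median-of-ratios scaling or a trimmed mean over peaks covered in all libraries (7 raised) and 31 with only the groups compared (24 raised). The median log2 change of all peaks for OSM moved from -0.104 to -0.211, -0.221 and -0.216 under the 3 other scalings, and for TGF-β1 from 0.046 to 0.124, 0.16 and 0.153. IL-13 had 4 calls, 1 raised, under each of these scalings, beside 3, 2 raised. IFNα had 1 call with library totals, median-of-ratios scaling, a pseudocount of 2, only the groups compared, or a trimmed mean over peaks covered in all libraries. The CHI3L1 sum with TNF reversed to 0.40 when rows were assigned by position (adjusted p = 0.359); the cause of these moves was not tested.

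Leaving out 1 replicate gave 10 to 16 calls for TGF-β1, 14 to 23 for IL-1β, 17 to 20 for TNF, 11 to 20 for OSM, 1 to 4 for IL-13, 1 to 2 for IFNγ, 0 to 2 for IFNα, 0 to 1 for IL-6 and 0 for IL-22 and IL-17A. It gave 4 to 6 for TNF against IL-1β, 26 to 36 for OSM against TNF, 28 to 36 for TGF-β1 against IL-13 and 11 to 14 pairs for summed coverage. Over a subset of peaks, deviations from the group means correlated at -0.019 to 0.035 between same-numbered unstimulated and cytokine libraries. By mean correlation with the other groups 19 of 44 libraries were closest to their own number, above an even share over 4 numbers. They were not paired, and shared replicate structure was not tested further. With the replicate number as a block the counts were 17 for TGF-β1, 22 for IL-1β, 22 for TNF, 20 for OSM, 3 for IL-13, 2 for IFNγ, 8, 39 and 41 for the direct comparisons and 13 pairs. The sums have no filter, so none was varied. Low peaks are limited by depth, since 1 read was worth up to 0.518 per Mb.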
